A study of Mus musculus with 6 samples.

Results

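The genes described here are 10 mouse genes that use or make nicotinamide adenine dinucleotide (NAD): the ADP-ribosyl cyclases Cd38 and Bst1, and 8 enzymes of NAD synthesis and phosphorylation, Nampt, Nmnat1, Nmnat3, Naprt, Nadsyn1, Qprt, Nadk and Nadk2. They were chosen by symbol, with earlier results of these data known. Each symbol matched 1 Ensembl identifier among the 49585 genes with counts. All 10 were abundant enough to be tested, among 14785 genes in all. The data are bulk RNA sequencing of mouse bone marrow haematopoietic stem cells (HSCs), the cells that renew the blood. The 2 groups were HSCs with high surface CD38 (CD38 pos, 3 libraries) and HSCs with low surface CD38 (CD38 neg, 3 libraries). Both groups came from untreated C57BL/6 mice aged 8 to 16 weeks, and the labels name no mutation, transgene or agent for either. The gate for both was lineage-negative, positive for Kit, Sca-1, CD150 and CD201, and negative for CD48 and CD34. Each library held the sorted cells of 10 pooled mice. The design text of the series matches the libraries into 3 pairs of 1 CD38 pos and 1 CD38 neg library, without saying whether partners came from the same mice.

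NAD carries electrons in metabolism and is also consumed as a substrate. CD38 is a membrane enzyme that cleaves NAD into nicotinamide with ADP-ribose or cyclic ADP-ribose, the latter a messenger that releases calcium from internal stores, and BST1 (also called CD157) is its paralogue with cyclase activity. Cells rebuild NAD by 3 routes: salvage from nicotinamide, synthesis from nicotinic acid, and de novo synthesis from tryptophan. NAD kinases add a phosphate to make NADP, whose reduced form supplies electrons for biosynthesis and antioxidant defence. CD38 is also a classical surface marker in the sorting of mouse HSCs.

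Total counts were 16771180 to 18558610 per library, and on the scale used here, CPM (a count relative to the TMM-scaled total of the tested genes in its library), 3 counts were 0.166 to 0.183 CPM. Transcripts of the 10 listed HSC markers (among them Kit, Ly6a, Slamf1, Procr and Hlf) were present in every library and together took 0.0677% to 0.236% of counts. The highest of these shares belonged to CD38 neg replicate 2, where Kit reached 556 CPM. Granulocyte and monocyte genes took 8.27% to 16.0% of counts although the gate was lineage-negative, with 8.27% to 16.0% in CD38 pos and 9.30% to 13.4% in CD38 neg libraries (two-sided exact permutation p = 1). The 12 B and plasma cell genes took 0.0376% to 0.0987% in CD38 pos and 0.133% to 0.343% in CD38 neg libraries, lower in 3 of 3 pairs (exact permutation p = 0.25, the smallest that 3 pairs allow). In such bulk libraries fewer cells of a type and less RNA per cell cannot be told apart. Across all genes, 0.0135% of those tested passed an adjusted p of 0.05 by quasi-likelihood testing in edgeR, with the pair as a replicate block.

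No gene among the 10 passed that threshold. In the fit, 8 had higher and 2 had lower values in CD38 pos libraries. The direction was the same in all 3 pairs for 8 of the 10 genes, 6 higher and 2 lower, where 24.5% of all tested genes kept 1 direction (13.2% higher, 11.3% lower). The median log2 fold change was 0.20 over the 10 genes and 0.00 over all tested genes, and the pair medians of the 10 were 0.12, 0.12 and 0.20. At an unadjusted p under 0.05 there was 1 gene of the 10, Cd38, against 5.08% of all tested genes (2.47% higher, 2.61% lower). The groups did not overlap in CPM for 3 genes, Cd38 and Nadsyn1 on the higher side and Nmnat3 on the lower side, against 6.53% of all tested genes (3.33% higher, 3.19% lower). Cd38, which is in both of these counts and among the 6 higher genes, encodes the protein by which the cells were sorted. Among the 6 are also Nmnat1 and Nadk2, whose pair differences were only 0.05 to 0.14 and 0.06 to 0.21. As the 10 genes were chosen with earlier results of these data known, these counts and medians describe them and are not a test.

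**Figure D1:**
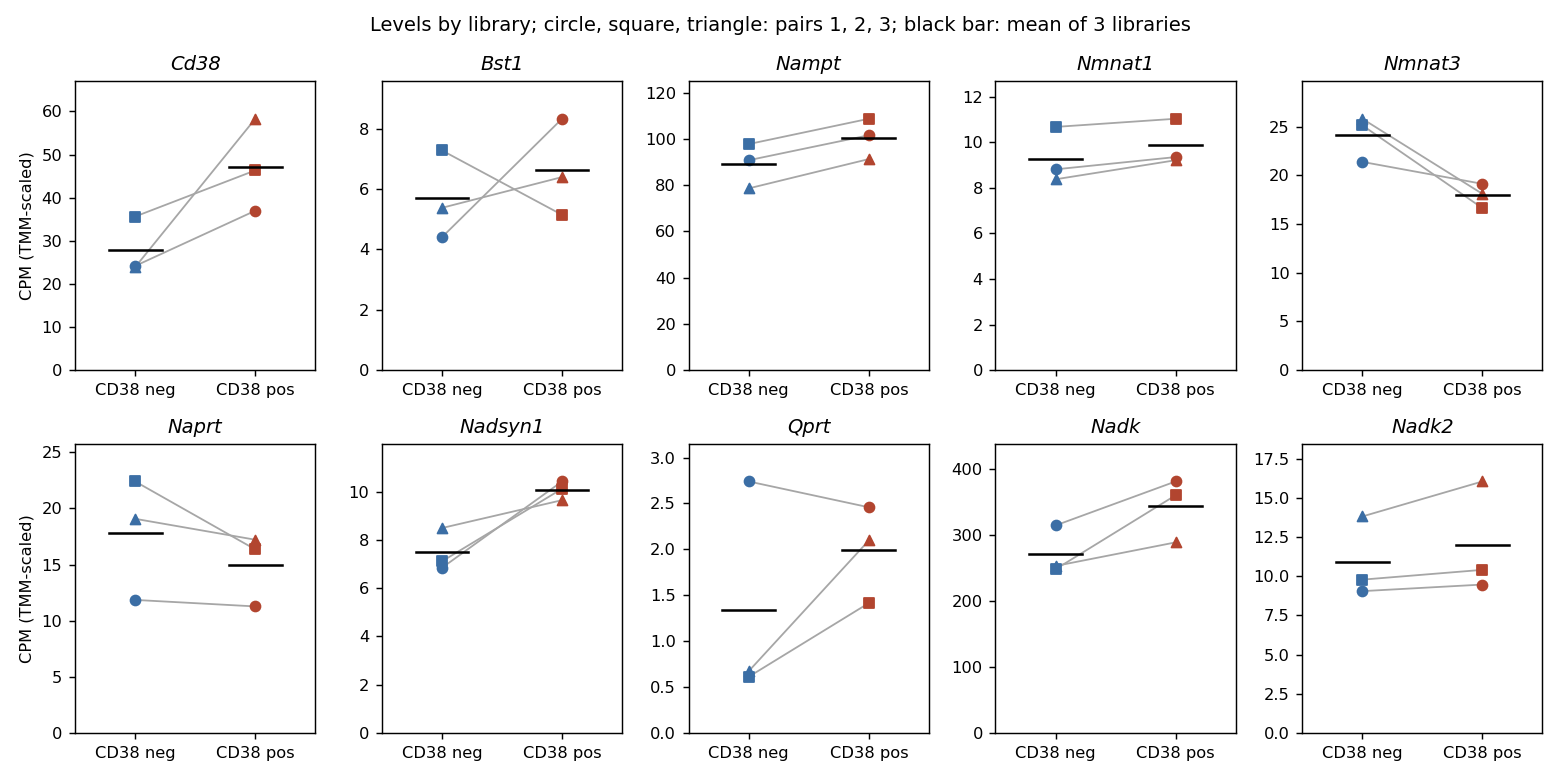
CPM of the 10 genes in the 6 libraries, with lines joining the libraries of a pair and black bars for the mean of 3 libraries; each panel has its own axis from 0. Cd38 and Nadsyn1 were higher and Nmnat3 lower in every CD38 pos library than in every CD38 neg library, while the other genes overlapped.

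Cd38 (ENSMUSG00000029084) is a protein-coding gene on the plus strand of chromosome 5 (43868553 to 43912375, build GRCm38, used for all loci here). It encodes the protein by which the cells were divided, so its transcript is not a measure independent of the sort. Its level was 37.0, 46.3 and 58.3 CPM in CD38 pos replicates 1, 2 and 3 and 24.2, 35.6 and 23.9 CPM in the CD38 neg partners. The groups were separate but only just: the lowest CD38 pos library was close to CD38 neg replicate 2, and that library stood above the other CD38 neg libraries. The fitted change was 1.69-fold (95% interval 1.21 to 2.37, edgeR unadjusted p = 0.00477, adjusted p = 0.893), and Cd38 ranked 75 by p-value among all tested genes. Pair 3 had the widest gap, 1.28 on the log2 scale, and pair 2 the narrowest, 0.38. Without pair 2 the log2 fold change was 0.94 (edgeR adjusted p = 0.0463), and without pair 3 it was 0.49 (edgeR unadjusted p = 0.108, adjusted p = 0.952). The B and plasma cell marker share was lower in CD38 pos libraries in every pair. For the HSC markers the share was higher in the CD38 pos library of 1 of 3 pairs. Of the 10 HSC markers, 9 had lower fitted values in CD38 pos libraries and 1, Slamf1, a higher one. Hlf, Meis1 and Kit were at -0.79, -0.63 and -0.90 on the log2 scale, and none of the 10 passed the threshold (edgeR adjusted p = 0.925 for each of these 3). The part of these markers in the Cd38 difference was not tested.

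Bst1 (ENSMUSG00000029082; chromosome 5, 43818885 to 43843986, plus strand) lies on the same strand 24566 bases before Cd38. Bst1 was at 8.33, 5.15 and 6.40 CPM in CD38 pos replicates 1, 2 and 3 and at 4.41, 7.28 and 5.38 CPM in their partners. The ranges overlapped, and the order within pair 2 was the reverse of that in pairs 1 and 3. The fitted change was 1.16-fold with a 95% interval of 0.713 to 1.90 (edgeR adjusted p = 0.955), so both a decrease and the 1.69-fold change fitted for Cd38 lay inside it. Without pair 1 the log2 fold change was -0.13. Exons of Bst1 share 98 bases with Fbxl5 on the opposite strand, and the strand setting of the counting is not given in the sources used here, so Bst1 reads could belong to Fbxl5 or have been dropped. Over the 6 libraries Bst1 had 639 reads and Fbxl5 19430, and the number from the shared bases is not known.

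Nampt (ENSMUSG00000020572; chromosome 12, 32819545 to 32853349, plus strand) encodes the rate-limiting enzyme of salvage, which turns nicotinamide into nicotinamide mononucleotide. It was at 102, 109 and 91.3 CPM in CD38 pos replicates 1, 2 and 3 and at 90.8, 97.8 and 78.6 CPM in the partners. Every CD38 pos library was slightly above its partner, by 0.15 to 0.22 on the log2 scale, but the groups overlapped. The change of 1.13-fold had an interval of 0.864 to 1.48 (edgeR adjusted p = 0.938).

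The enzymes NMNAT1 and NMNAT3 complete salvage by joining the mononucleotide to ATP, NMNAT1 in the nucleus and NMNAT3 reported in mitochondria and cytosol. Nmnat1 (ENSMUSG00000028992; chromosome 4, 149467572 to 149485202, minus strand) was at 9.35, 11.0 and 9.21 CPM in CD38 pos replicates 1, 2 and 3 and at 8.81, 10.7 and 8.38 CPM in the partners. These groups overlapped almost fully, with a fold of 1.06 and an interval of 0.726 to 1.56 (edgeR adjusted p = 0.975). Nmnat3 (ENSMUSG00000032456; chromosome 9, 98287435 to 98420438, plus strand) was at 19.1, 16.6 and 18.1 CPM in CD38 pos replicates 1, 2 and 3 and at 21.4, 25.1 and 25.8 CPM in the partners. All CD38 pos libraries were below all CD38 neg libraries, most clearly in pairs 2 and 3. Its fitted fold of 0.746 (interval 0.532 to 1.05) did not pass the test (edgeR unadjusted p = 0.0836, adjusted p = 0.926).

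NAPRT and NADSYN1 act at the start and the end of the nicotinic acid route: NAPRT makes nicotinic acid mononucleotide, and NADSYN1 converts the last acid intermediate into NAD, a step shared with de novo synthesis. Naprt (ENSMUSG00000022574; chromosome 15, 75890956 to 75894481, minus strand) was at 11.3, 16.4 and 17.2 CPM in CD38 pos replicates 1, 2 and 3 and at 11.8, 22.4 and 19.1 CPM in the partners. Both libraries of pair 1 were low, and each CD38 pos library was below its partner. The fold was 0.854 (interval 0.601 to 1.21, edgeR adjusted p = 0.939). Naprt shares 277 exonic bases with Eef1d on the same strand, where reads cannot be assigned to 1 gene.

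Nadsyn1 (ENSMUSG00000031090; chromosome 7, 143795584 to 143822849, minus strand) had the tightest CD38 pos values of the 10 genes. It was at 10.4, 10.1 and 9.65 CPM in CD38 pos replicates 1, 2 and 3, a coefficient of variation of 3.88%, and at 6.85, 7.12 and 8.50 CPM in the partners. The groups were separate, with the smallest gap in pair 3. The change was 1.35-fold (interval 0.907 to 2.01) and did not pass the test (edgeR unadjusted p = 0.128, adjusted p = 0.926). The opposite signs of Naprt and Nadsyn1, which share a route, were not tested against each other.

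Qprt (ENSMUSG00000030674; chromosome 7, 127107114 to 127122226, minus strand) encodes quinolinate phosphoribosyltransferase, which brings the tryptophan route into the nucleotide pathway. It was the scarcest of the 10, with 41, 25 and 38 reads in CD38 pos replicates 1, 2 and 3 and 46, 11 and 11 reads in the partners. CD38 neg replicate 1 was the highest of all 6 libraries, and the other CD38 neg libraries were the lowest. The fold of 1.77 therefore had a wide interval, 0.840 to 3.73 (edgeR unadjusted p = 0.122, adjusted p = 0.926). The log2 fold change was 1.42 without pair 1 and 0.43 without pair 3.

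The NAD kinases differed widely in abundance. Nadk (ENSMUSG00000029063; chromosome 4, 155562378 to 155591001, plus strand), the cytosolic kinase, was at 380.4, 359.5 and 288.3 CPM in CD38 pos replicates 1, 2 and 3 and at 313.9, 247.6 and 252.6 CPM in the partners. CD38 pos libraries were above their partners in all pairs, yet CD38 neg replicate 1 lay above CD38 pos replicate 3. The fold was 1.26 (interval 0.950 to 1.68, edgeR unadjusted p = 0.101, adjusted p = 0.926). Nadk2 (ENSMUSG00000022253; chromosome 15, 9071260 to 9110891, plus strand), the mitochondrial kinase, was at 9.47, 10.4 and 16.1 CPM in CD38 pos replicates 1, 2 and 3 and at 9.05, 9.78 and 13.8 CPM in the partners. Here both libraries of pair 3 were high, and the difference within pairs was at most 0.21 on the log2 scale. Its fold of 1.09 had an interval of 0.753 to 1.58 (edgeR adjusted p = 0.966).

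**Figure D2:**
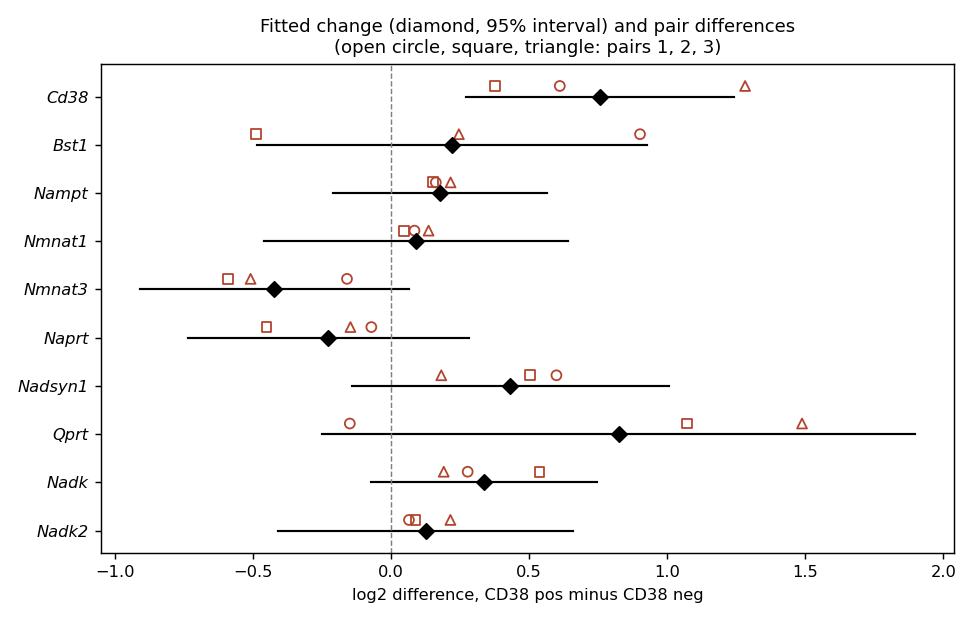
Log2 difference, CD38 pos minus CD38 neg, for each gene: diamonds and lines are the fitted change with its 95% interval, open symbols the 3 pair differences. The interval of Cd38 (0.27 to 1.24) is the 1 interval of the 10 that does not include 0, before any adjustment for the number of genes tested.

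Levels can be compared between genes only per length, here as CPM per kilobase of annotated exon, averaged over all 6 libraries. Nadk was the most abundant at 81.9 (range 66.1 to 102) and Nampt the next at 18.8 (15.6 to 21.5). Cd38 followed at 9.66 (6.15 to 15.0), Naprt at 6.98 (4.81 to 9.56) and Nmnat3 at 4.20 (3.32 to 5.16). Lower still were Nmnat1 at 3.15, Nadsyn1 at 2.66, Nadk2 at 2.23 and Bst1 at 1.86, and Qprt was lowest at 0.630 (0.231 to 1.04).

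Only 3 neighbouring steps in this order were wider than the spread over libraries. Nadk was above Nampt, Nampt above Cd38, and Bst1 above Qprt without overlap of their ranges. Every other neighbouring pair overlapped in range. Within libraries, Naprt was above Nmnat3 in 6 of 6, and Nmnat3 above Nmnat1 and Nmnat1 above Nadsyn1 in 5 of 6 each. Cd38 was above Naprt, Nadsyn1 above Nadk2 and Nadk2 above Bst1 in 4 of 6 libraries each. Thus the kinase of the cytosol and the salvage enzyme NAMPT led the synthesis genes in these libraries. Transcripts of Cd38 were more abundant per length than those of the remaining synthesis genes in CD38 pos libraries. There its lowest value was 9.51 and the highest of Naprt 7.34. Granulocyte and monocyte genes took 8.27% to 16.0% of counts, and the part of such cells in this order was not tested.

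**Figure D3:**
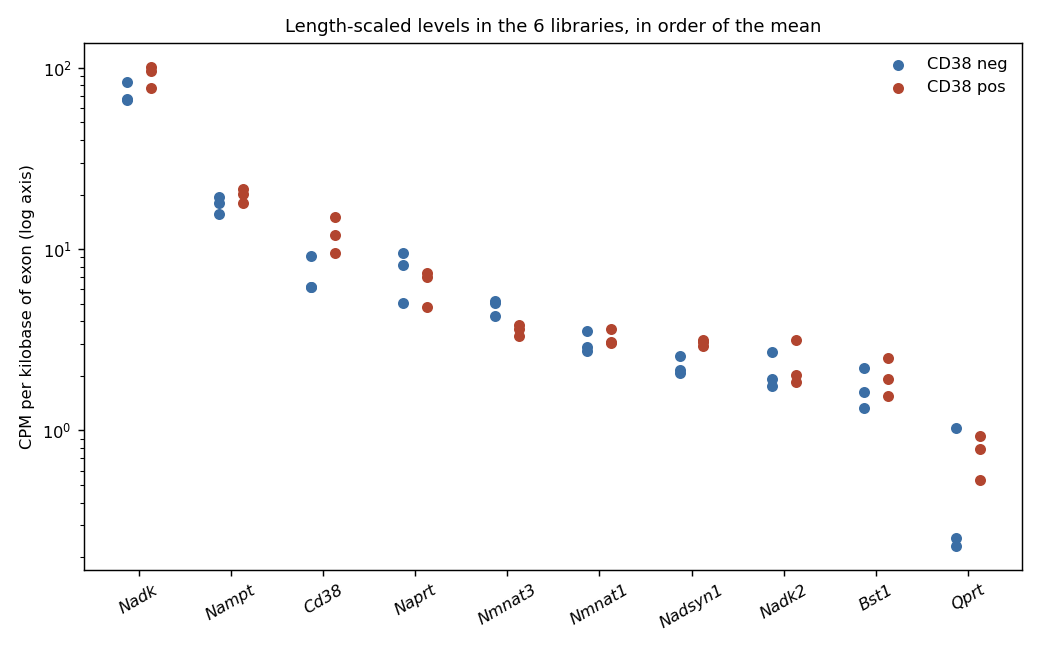
CPM per kilobase of exon on a log axis for each gene in each library, ordered by the mean of 6 libraries. Nadk stands at 66.1 to 102 and Qprt at 0.231 to 1.04; between Cd38 and Bst1 neighbouring genes overlap.

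Ratios within a library describe the balance between related enzymes and do not depend on library scaling; they were picked with the counts known and are given without a test. The length-scaled ratio of Cd38 to Bst1 was 3.78, 7.67 and 7.77 in CD38 pos replicates 1, 2 and 3 and 4.68, 4.17 and 3.79 in the partners. Cd38 thus outweighed Bst1 in every library, and CD38 pos replicate 1 was as low as the CD38 neg libraries. The ratio of Cd38 to Nampt, consumer to salvage enzyme, was 0.473, 0.554 and 0.830 in CD38 pos replicates 1, 2 and 3 against 0.346, 0.473 and 0.395. It was higher in the CD38 pos library of all 3 pairs. The groups overlapped slightly, as the lowest CD38 pos value (0.4729) lay just below the highest CD38 neg value (0.4735). The ratio of Nmnat1 to Nmnat3 was 0.806, 1.09 and 0.839 in CD38 pos replicates 1, 2 and 3 and 0.679, 0.700 and 0.535 in the partners. These ratios did not overlap between groups, and the part that differed was mainly Nmnat3.

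The other 2 ratios examined also overlapped between the groups. Naprt to Nampt was 0.239, 0.324 and 0.406 in CD38 pos replicates 1, 2 and 3 and 0.281, 0.494 and 0.523 in the partners, lower in the CD38 pos library of all 3 pairs. Nadk to Nadk2, the cytosolic to the mitochondrial kinase, was 54.9, 47.2 and 24.5 in CD38 pos replicates 1, 2 and 3 and 47.4, 34.6 and 25.0 in the partners, higher in 2 of 3 pairs.

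**Figure D4:**
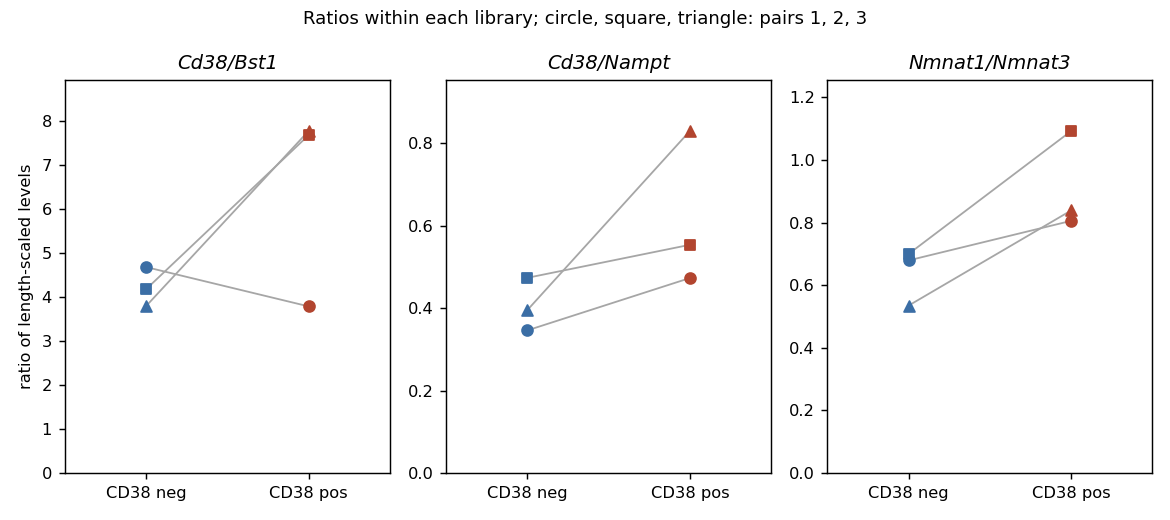
Length-scaled ratios within each library on axes from 0, with lines joining the libraries of a pair. The ratio of Nmnat1 to Nmnat3 lies between 0.806 and 1.09 in CD38 pos and between 0.535 and 0.700 in CD38 neg libraries, whereas Cd38 to Bst1 overlaps through pair 1.

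The rest of the NAD pathway was read from 5 lists with 61 genes, 43 of which were tested; none passed an adjusted p of 0.05 in edgeR, and 1 had an unadjusted p under 0.05, against 5.08% of all tested genes. Of 14 other precursor enzymes (nicotinamide riboside kinases, NMNAT2 and the kynurenine route from tryptophan), 8 were tested, 3 with higher and 5 with lower fitted values, and the median log2 fold change was -0.03. Neither Ido2 nor Nmrk2 had a read in any library, which allows a level of up to 0.183 CPM, while Ido1 and Tdo2, the other enzymes that can open the tryptophan route, had at most 5 and 12 reads in a library. Kynu, which encodes kynureninase, was at 0.667 ± 0.213 CPM (SD, n = 3) in CD38 pos and 1.46 ± 0.852 CPM (SD, n = 3) in CD38 neg libraries (log2 fold change -1.04, edgeR adjusted p = 0.926). Kyat1, a kynurenine aminotransferase gene, was at -0.56 (edgeR adjusted p = 0.926). Both were lower in 3 of 3 pairs. Kyat3, another aminotransferase gene, had the highest length-scaled level of this list at 2.85 and a log2 fold change of -0.02.

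Of 15 genes for transport, removal and hydride exchange, 9 were tested, 3 higher and 6 lower, with a median of -0.14. Nudt7, a peroxisomal nucleotide hydrolase gene, was at -0.30 and Enpp3, an ectoenzyme gene, at -0.60 (edgeR adjusted p = 0.932 and 0.936). Each was higher in the CD38 pos library of 1 of 3 pairs, and Enpp3 had only 6 to 35 reads in a library. Naxe, which encodes the epimerase that repairs hydrated NADH and NADPH, had the highest length-scaled level at 106 and a log2 fold change of -0.07. Sarm1, which encodes another NAD-cleaving enzyme, had at most 4 reads in a library, so a change in it was not detectable at this depth.

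Among 11 genes for targets and handling of the cyclase products, 9 were tested, 8 higher and 1 lower, with a median of 0.21 (0.06, 0.24 and 0.25 in pairs 1, 2 and 3). Tpcn1 and Tpcn2, which encode two-pore channels of endosomes and lysosomes linked to the messenger NAADP, were higher in 3 of 3 pairs, with log2 fold changes of 0.36 and 0.46 (edgeR adjusted p = 0.932 and 0.929). Jpt2, which encodes an NAADP-binding protein, had the highest length-scaled level at 59.9 and a log2 fold change of 0.04. Of the ryanodine receptor genes, the calcium channels that respond to cyclic ADP-ribose, Ryr1 was at 1.16 ± 0.321 CPM (SD, n = 3) and 0.966 ± 0.270 CPM (SD, n = 3). Ryr2 and Ryr3 had at most 2 and 9 reads in a library.

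The NADPH-forming list held 14 genes, most of them for dehydrogenases that use the NADP made by NAD kinases. Mthfd1l, at a log2 fold change of 0.32, encodes a folate enzyme without dehydrogenase activity. Of the 14 genes, 12 were tested, 11 higher and 1 lower, with a median of 0.32. The pair medians were 0.03, 0.67 and 0.15, so pair 2 carried most of the shift. Idh2, which encodes the mitochondrial isocitrate dehydrogenase, had a level of 253.0 ± 65.6 CPM (SD, n = 3) in CD38 pos and 184.7 ± 26.1 CPM (SD, n = 3) in CD38 neg libraries (log2 fold change 0.43, edgeR unadjusted p = 0.0478, adjusted p = 0.926). Mthfd2, a mitochondrial folate enzyme gene whose product works mainly with NAD, was at 0.48 (edgeR adjusted p = 0.926). Both were higher in 3 of 3 pairs. G6pdx, the first enzyme gene of the pentose phosphate pathway, had the highest length-scaled level at 102 and a fitted log2 change of 0.34 (edgeR adjusted p = 0.926), close to the 0.34 of Nadk. Of 14 granulocyte and monocyte genes, 11 also had higher fitted values in CD38 pos libraries. The share of counts taken by all 14 was higher in the CD38 pos library of 1 of 3 pairs. In pair 2 this share was lower in the CD38 pos library (8.27% against 9.30%), but the 14 genes did not move together. On the log2 scale Csf1r and Lyz2 were at 1.13 and 0.66 in that pair, and S100a8 and Ngp at -0.41 and -0.29. The part of granulocytes and monocytes in the values of the NADPH-forming list was not tested.

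The last list held extracellular ADP-ribosyltransferases, which use the same substrate outside the cell, and Pecam1, whose product CD31 is described as a ligand of CD38. Of its 7 genes 5 were tested, 2 higher and 3 lower, with a median of -0.18. Pecam1 was at 62.3 ± 6.96 CPM (SD, n = 3) in CD38 pos and 50.2 ± 2.40 CPM (SD, n = 3) in CD38 neg libraries, higher in 3 of 3 pairs without overlap of the groups, with a fitted log2 change of 0.31 (edgeR unadjusted p = 0.133, adjusted p = 0.929). Of the 43 genes tested in the 5 lists, Pecam1 was the 1 gene without overlap, against 6.53% of all tested genes. Art2b was at -0.53 (edgeR adjusted p = 0.932) and higher in the CD38 pos library of 1 of 3 pairs. It had 97 reads in CD38 neg replicate 2 and 20 to 41 in the other libraries. Art4, the most abundant per length at 29.0, was at -0.18.

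**Figure D5:**
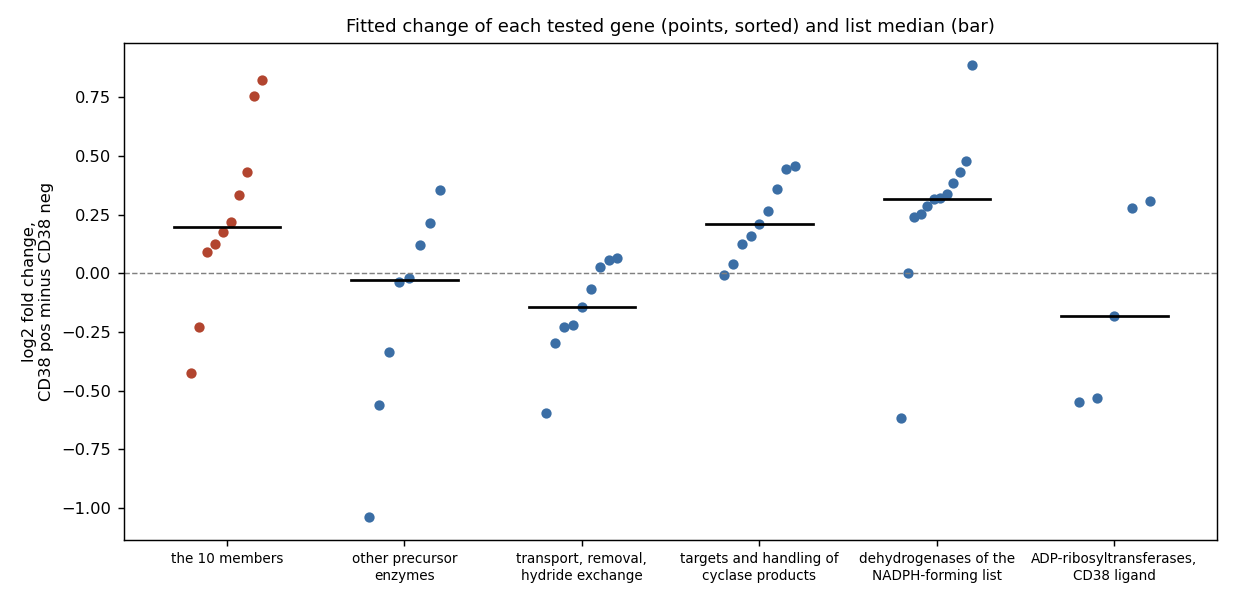
Fitted log2 fold change, CD38 pos minus CD38 neg, of each tested gene of the 10 and of the 5 other NAD lists, with a bar for the list median. List medians run from -0.18 to 0.32, and no gene shown passed an adjusted p of 0.05.

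Genes whose pattern over the 6 libraries was most like that of a member were found by the root mean square difference of centred log2 CPM, among genes with a mean of at least 5 CPM. Nearest to Cd38, whose own spread by the same measure was 0.463, were Amotl2 (0.123), Itsn2 (0.141), Pgs1 (0.199) and Ttc38 (0.200). Nearest to Bst1 (own spread 0.306) were 1810013L24Rik (0.0903), Map4k4 (0.117), Gm26778 (0.130) and Rictor (0.142).

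Nampt varied little, with an own spread of 0.147. Its nearest genes were Vipas39 (0.0161), Nol11 (0.0417), Atg7 (0.0464) and Vti1a (0.0503). Qprt, with an own spread of 0.787, had no neighbour nearer than Tmf1 (0.211), followed by Ccno (0.311), Lpl (0.324) and Nfkbid (0.324). With 6 libraries and 10372 genes compared, the distances describe these libraries only.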

How the data were processed

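The authors deposited 6 tables without a header, 1 for each library, holding raw counts of reads by Ensembl identifier. The submitters' processing notes name cutadapt, STAR, HTSeq 0.6.1p1 and the build GRCm38 (mm10); the annotation release, counting mode and strand setting are not given in the sources used here. Gene symbols matched 49326 of 49585 identifiers; loci and exon lengths (union of exons) came from GENCODE M21 on GRCm38.

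In R 4.3.3, genes were kept with filterByExpr, scaled by TMM and tested with edgeR 4.0.16 (quasi-likelihood F-test, pair plus population, Benjamini-Hochberg over 14785 genes). Standard errors and 95% intervals came from the quasi-F statistic. Pair differences used log2 CPM (prior count 2). The design text states the pairs, and deviations of partners from their group means correlated at 0.34, 0.12 and 0.24. Libraries of a group differed beyond counting noise (chi-square over its degrees of freedom 47.4 to 106). The procedure was tested on simulated data without pair effects, which does not cover the replicate block.

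Named genes were the 10 members; in each list the genes past the threshold, otherwise the 2 with the smallest p, plus the highest length-scaled level; and 4 nearest genes each for Cd38, Bst1, Nampt and Qprt. Other named genes were chosen after their values were seen. Members and lists were chosen with earlier results of these data known. Pnp and Art2a are not analysed here. Floors cover counting error only. Alternatives used DESeq2 1.42.0, limma-voom (limma 3.58.1), other scalings and filters, no block, and leaving out each pair.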

Additional observations from a re-analysis of the deposited data

How the results depend on the processing

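Of 100 alternative values for the 10 genes, 98 kept their direction and their side of the threshold. The exceptions both came from leaving out a pair: Cd38 ranged from 0.49 to 0.94 on the log2 scale and passed without pair 2 (0.94, edgeR adjusted p = 0.0463; 0.0463 to 0.994 over its alternatives), and Bst1 ranged from -0.13, without pair 1, to 0.57. The cause was not tested. The 8 higher and 2 lower genes kept these counts under every alternative except without pair 1, where they were 7 and 3. Without the replicate block no gene of the 10 changed its call; the count over all genes fell from 2 to 0 (417 at an unadjusted p under 0.05), and with unscaled totals it was also 0 (595 unadjusted). It was 11 with DESeq2, 7 with DESeq2 size factors, 80 with no filter, 13 with a mean of at least 10 counts, and 2 to 41 when a pair was left out (41 without pair 2, 12 without pair 3). The median log2 fold change of all genes was 0.00 with DESeq2 size factors and -0.02 with unscaled totals. Qprt, at 11 reads in 2 libraries, is the member most limited by depth.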
